A study of Homo sapiens with 34 samples.

Results

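NKX2-5 knockdown cells were followed from day 6 to day 10 of differentiation, the interval in which cultures of human embryonic stem cells given a cardiac protocol pass from cardiac progenitors to beating muscle. The comparison rests on 4 of the 34 libraries of the series, 2 from day 6 and 2 from day 10, taken by their column names from the table of raw read counts, with 1 row per gene symbol. All 4 came from H1 cells, an established line of human embryonic stem cells. They expressed a lentiviral shRNA that targets NKX2-5, after puromycin selection. A single shRNA line was profiled, the one with the best knockdown. The cells were exposed to CHIR99021, a GSK3β inhibitor that activates WNT signalling, then to IWP2, which blocks WNT secretion, and insulin was added between the 2 days compared, so that time and insulin cannot be told apart. For comparison, WT cells (H1 given either a control shRNA that targets GFP or the vector alone) and ZEB2 shRNA cells of the same days were read, with 2 libraries of each day and line, those of day 10 being replicates 3 and 4. The series describes replicates as biological.

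NKX2-5 is a homeodomain transcription factor of the early heart field, and cardiac muscle cells fail to mature properly without it. In the embryo the heart field lies beside mesoderm that makes the first blood and endothelium, and beside yolk sac and foregut endoderm. Blood islands of the yolk sac make red cells that carry embryonic globins (zeta and epsilon) before the fetal gamma chains, and the visceral endoderm of the yolk sac secretes many of the plasma proteins that the liver makes later, such as alpha-fetoprotein and the apolipoproteins. All of these lineages can arise in the same differentiating culture.

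The libraries held 27313939 and 50878538 reads at day 6 and 22395020 and 20153630 reads at day 10 over the rows used, so that 3 counts, taken here as the limit of detection, correspond to between 0.0598 and 0.136 CPM, the count scaled to a fixed library size. The day 6 libraries were close to each other (Pearson's r of log2(CPM + 1) across genes 0.996) and the day 10 libraries less so (0.957), where 90 genes were at least 4-fold higher in replicate 2 and 213 at least 4-fold higher in replicate 1. No gene differed by that much between replicates at day 0, 2 or 6. NKX2-5 itself stood at 27 and 38 counts at day 6 and at 14 and 66 counts at day 10 (0.975, 0.757, 0.633 and 2.998 CPM). WT cells had 84.2 and 49.2 CPM at day 6 and 107 and 171 CPM at day 10. At day 10 the knockdown line was lower than WT by a log2 difference of -6.16 (adjusted p = 1.88e-05), while within the line the level of NKX2-5 at day 10 was not distinguishable from that at day 6 (log2 fold change 1.07 ± 0.79, SE, adjusted p = 0.293).

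Differences between days were tested with edgeR's quasi-likelihood test, with the p-value adjusted by the Benjamini-Hochberg method over 17708 genes. Genes are described as called when the change was at least 8-fold at a false discovery rate (FDR) of 1%, and as having risen or fallen when they passed 5% FDR at any fold. Day 10 against day 6 gave 980 called genes (5.53% of those tested), 846 of them higher (4.78%) and 134 lower (0.757%). The spread was estimated over days 0, 2, 6 and 10 together, although the day 10 replicates lay furthest apart. The p-values can therefore understate the spread at day 10. Fitted on days 6 and 10 alone, 288 genes were called (254 higher and 34 lower). At 5% FDR 24.1% of the genes rose and 25.0% fell, and the median log2 fold change over all genes was 0.03. Values after ± are standard errors of the log2 fold change unless SD is stated. In bulk RNA, a change in the number of cells of a type and a change in RNA per cell cannot be told apart.

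**Figure D1:**
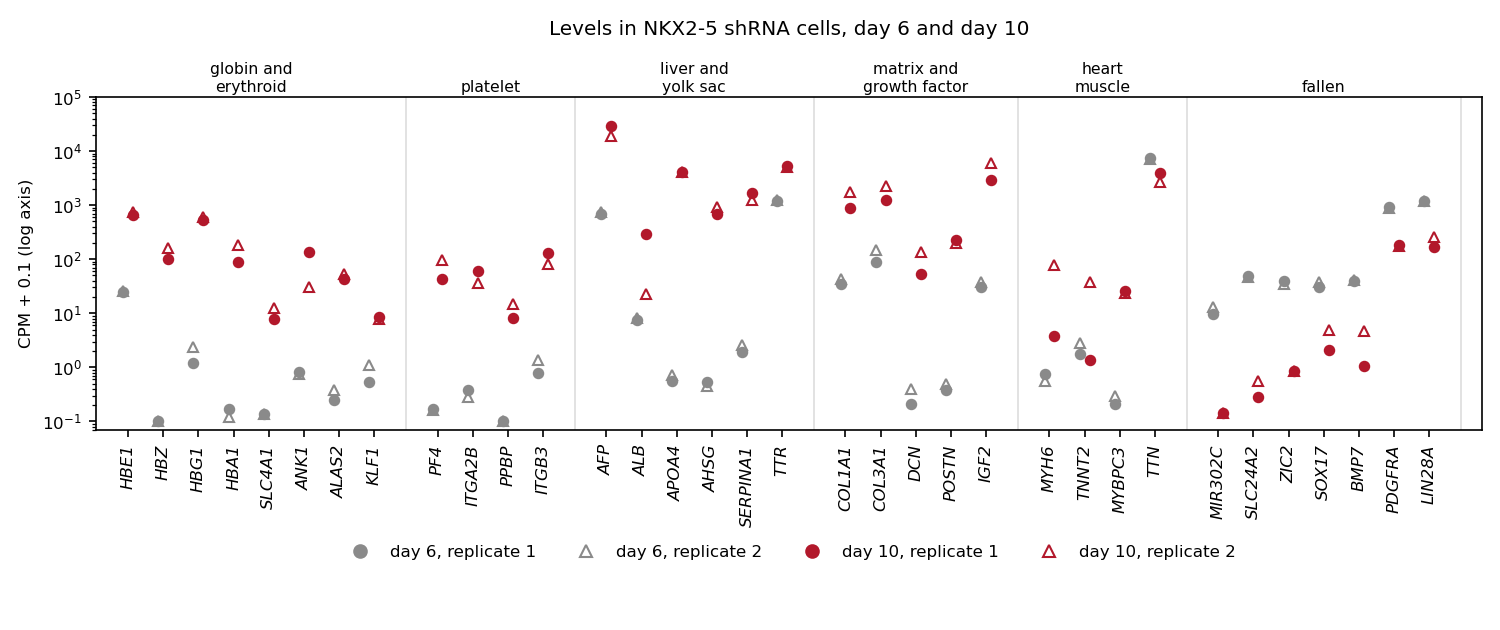
Levels (CPM + 0.1, log axis) of 34 genes in each of the 4 NKX2-5 shRNA libraries, day 6 in grey and day 10 in red, with circles for replicate 1 and triangles for replicate 2. HBZ lies at the bottom of the axis at day 6 and at 102 and 163 CPM at day 10, whereas MYH6 and TNNT2 at day 10 are high in replicate 2 and low in replicate 1.

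All 9 globins tested rose from day 6 to day 10 at 5% FDR and 7 of them were called, with a median log2 fold change of 8.31. The epsilon globin HBE1 was at 24.9 and 25.2 CPM at day 6 and at 658 and 759 CPM at day 10. It was the globin with the highest level at day 6, and both day 10 libraries lay far above both day 6 libraries (log2 fold change 4.82 ± 0.16, adjusted p = 9.88e-06). The zeta globin HBZ had no read at day 6 and reached 102 and 163 CPM at day 10, at least 1581-fold higher against the limit of detection. The fetal gamma chains HBG1 (1.08 and 2.31 CPM, then 522 and 599 CPM) and HBG2 (2.02 and 2.23 CPM, then 488 and 615 CPM) and the alpha chains HBA1 (0.0722 and 0.0199 CPM, then 88.8 and 186 CPM) and HBA2 (0 and 0.0199 CPM, then 82.1 and 179 CPM) showed the same direction in both libraries of each day. HBG1 and HBG2, and likewise HBA1 and HBA2, are near-identical copies, and how the counting divided reads between the copies is not stated, so their separate values are uncertain. The adult beta chain HBB, which did not pass the filter on low counts, had 0 and 1 counts at day 6 and 5 and 272 counts at day 10, the latter in replicate 2. The less used chains HBM (0 and 0 CPM, then 1.49 and 1.91 CPM), HBD and HBQ1 stayed below 4 CPM.

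Among 23 erythroid membrane and enzyme genes, 14 rose, 1 fell and 8 did not pass, and 9 were called higher. The anion exchanger SLC4A1 rose from 0.0361 and 0.0398 CPM to 7.78 and 12.2 CPM. Ankyrin 1, ANK1, rose from 0.722 and 0.657 CPM to 137 and 29.9 CPM, with replicate 1 well above replicate 2. AHSP, the chaperone of free alpha globin, had no read in any of the 4 libraries. Without day 6 replicate 1 the called count of this list fell from 9 to 2, and likewise without day 6 replicate 2, whereas the globins had 7 and 6 calls without these libraries, against 7 with all.

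Haem synthesis moved in a different way. ALAS2, the erythroid enzyme of the first step of haem synthesis, rose from 0.144 and 0.279 CPM to 43.5 and 52.7 CPM (log2 fold change 7.72 ± 0.50, adjusted p = 0.000136). The other 13 tested genes of haem synthesis and iron handling were not called. The mitochondrial iron importer SLC25A37 (18.7 and 18.1 CPM, then 57.2 and 60.6 CPM) and the ferritin heavy chain FTH1 were the other members that rose, and UROS and TMEM14C fell. The median of this list was 0.15.

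Of 16 haematopoietic transcription factors 12 rose, none fell and 4 did not pass, with 3 called higher and a median log2 fold change of 1.79. GATA1, the master regulator of red cells and megakaryocytes, had 0 and 0.0797 CPM at day 6 and 19.9 and 8.77 CPM at day 10. KLF1, which activates erythroid genes, had 0.433 and 1.02 CPM at day 6 and 8.41 and 7.59 CPM at day 10 (log2 fold change 3.42 ± 0.55, adjusted p = 0.00191, and 0.0189 without day 6 replicate 1). GFI1B, a repressor that acts with GATA1, rose from 0.506 and 0.677 CPM to 16.6 and 9.13 CPM. Earlier factors of blood and endothelium were present by day 6: TAL1 stood at 11.4 and 9.96 CPM and rose to 39.5 and 29.2 CPM, and RUNX1 stood at 4.30 and 4.26 CPM and rose to 24.4 and 14.7 CPM. All 3 called factors and both of these earlier ones were above their day 6 values in both day 10 libraries. The same held for 6387 of all 17708 genes tested.

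The promoters of GATA1 and KLF1, the 250 bases before the annotated start in RefSeq (GRCh38.p14), are shown because both factors rose among the red cell genes and their windows hold different motifs. Capitals mark the letters searched for on both strands: AGATAA and TGATAA (the core that GATA factors bind), CACCC (bound by KLF1) and CCAAT. The GATA1 window lies on the plus strand at chrX:48786340-48786589 and the KLF1 window on the minus strand at chr19:12887202-12887451.
GATA1: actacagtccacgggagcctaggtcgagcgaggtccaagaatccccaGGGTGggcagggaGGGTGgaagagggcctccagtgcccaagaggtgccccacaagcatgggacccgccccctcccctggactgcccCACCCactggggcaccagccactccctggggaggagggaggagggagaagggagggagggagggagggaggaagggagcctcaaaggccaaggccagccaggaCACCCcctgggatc
KLF1: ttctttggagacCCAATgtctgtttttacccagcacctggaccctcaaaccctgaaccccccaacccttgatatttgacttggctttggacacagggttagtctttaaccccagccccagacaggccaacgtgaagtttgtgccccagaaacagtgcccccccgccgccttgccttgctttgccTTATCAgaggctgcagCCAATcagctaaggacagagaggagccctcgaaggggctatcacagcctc

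The GATA1 window held 4 CACCC and no GATA or CCAAT match, and the KLF1 window held 1 TGATAA, on the reverse strand, and 2 CCAAT. Among 27305 promoters of this length, 14.9% held a GATA match, 53.7% a CACCC and 33.0% a CCAAT. Among the tested genes with a promoter in the table (13371) the shares were 8.94%, 58.1% and 34.6%, and among those called higher (590) they were 17.3%, 65.4% and 26.6%. The 13 of 17 listed haematopoietic factors with a promoter held a GATA match in 3, a CACCC in 8 and a CCAAT in 5. These are matches of letters and not measured binding. No globin promoter is shown.

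Platelet genes gave the largest share of called genes after the globins. Of 17 megakaryocyte and platelet genes, 16 rose, 1 did not pass and 13 were called higher, with a median log2 fold change of 4.73. Platelet factor 4, PF4, a chemokine of platelet granules, stood at 0.0722 and 0.0598 CPM at day 6 and at 43.9 and 98.2 CPM at day 10 (at least 845-fold higher). PPBP, another chemokine of the same granules, and GP9, part of the receptor for von Willebrand factor, had no read at day 6, and had 8.00 and 14.7 CPM and 13.8 and 6.86 CPM at day 10. The fibrinogen receptor subunits ITGA2B (0.289 and 0.179 CPM, then 59.8 and 36.5 CPM) and ITGB3 (0.686 and 1.29 CPM, then 129 and 82.7 CPM) both rose (log2 fold changes 7.73 ± 0.46 and 6.68 ± 0.37). TUBB1, the tubulin of the platelet marginal band, went from 0 to 16.7 and 14.8 CPM, and PLEK, the platelet protein kinase C substrate, from 0 and 0.0398 CPM to 57.7 and 41.97 CPM. In each of these genes both day 10 libraries were above both day 6 libraries. Of all 17708 genes tested, 6387 were higher and 6634 lower without overlap, so such a separation was common.

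Leukocyte genes were thinner. Of 11 tested 6 rose, 1 fell and 4 did not pass. PTPRC (CD45), carried by nearly all white cells, had no read in any of the 4 libraries, and SPI1, the transcription factor of myeloid cells, had 0 and 4 counts at day 6 and 16 and 4 counts at day 10. CSF1R, the receptor of macrophage growth factor (0.217 and 0.358 CPM, then 10.8 and 5.18 CPM), CD68 (2.35 and 2.03 CPM, then 18.6 and 17.3 CPM) and SPN (0.506 and 0.159 CPM, then 16.6 and 5.04 CPM) were called higher. KIT, the stem cell factor receptor, fell from 168 and 159 CPM to 8.18 and 32.4 CPM (log2 fold change -3.01 ± 0.53, adjusted p = 0.00262). Without day 10 replicate 1 its log2 fold change was -2.30, under the 8-fold limit. The list had 4 genes called higher, and 2 and 0 without day 6 replicates 1 and 2.

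Endothelial genes changed less. Of 22 tested 12 rose, 2 fell and 8 did not pass, and 3 were called higher and 1 lower. PECAM1 (4.33 and 5.26 CPM, then 21.1 and 12.9 CPM) and TIE1 (4.08 and 3.62 CPM, then 14.6 and 13.9 CPM), adhesion molecule and receptor of vessel walls, rose by log2 fold changes of 1.82 ± 0.36 and 1.89 ± 0.27 (adjusted p = 0.00445 and 0.00110). EMCN, a sialomucin of veins and capillaries, rose from 2.28 and 2.27 CPM to 16.8 and 42.5 CPM. KDR, the VEGF receptor, fell from 147 and 152 CPM to 43.6 and 91.7 CPM. CD34, shared by blood progenitors and endothelium, was at 13.98 and 13.56 CPM at day 6 and 20.8 and 22.8 CPM at day 10, which did not pass (log2 fold change 0.66 ± 0.35, adjusted p = 0.156). The higher calls of this list were lost without day 10 replicate 2, and likewise without either day 6 library. The list median was 1.51 without day 10 replicate 1 and 1.23 without day 10 replicate 2.

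**Figure D2:**
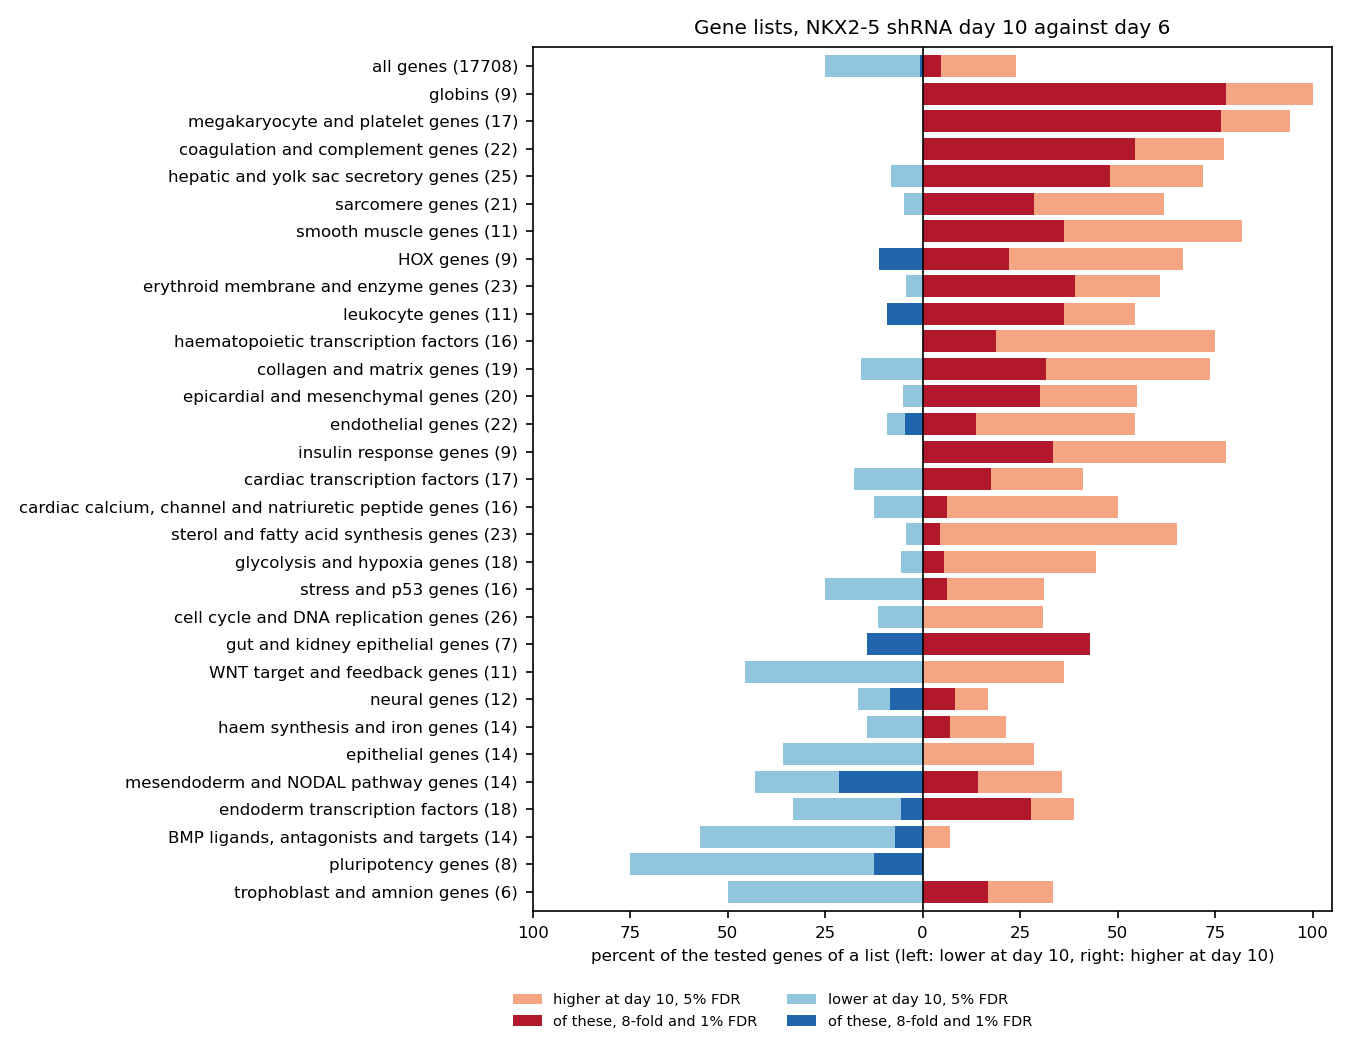
Share of the tested genes of each of 30 lists and of all genes (number tested in brackets) that rose (right) or fell (left) at 5% FDR, with the part also called at 8-fold and 1% FDR in the darker colour; lists are ordered by their median log2 fold change. Globins (7 of 9 called) and platelet genes (13 of 17) lie at the top, and all genes have 4.78% called higher and 0.757% called lower.

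Secreted proteins of yolk sac and liver rose to high levels at day 10. Of 25 hepatic and yolk sac secretory genes 18 rose, 2 fell and 5 did not pass, and 12 were called higher, with a median log2 fold change of 3.74. Alpha-fetoprotein, AFP, rose from 677 and 739 CPM to 28866 and 19002 CPM (log2 fold change 5.08 ± 0.36, adjusted p = 9.81e-05). The apolipoprotein APOA4 was low at day 6 (0.469 and 0.637 CPM) and stood at 4133 and 4057 CPM at day 10, a log2 fold change of 12.80 ± 0.60. The carrier AHSG went from 0.433 and 0.358 CPM to 694 and 911 CPM, and the protease inhibitor SERPINA1 from 1.81 and 2.45 CPM to 1677 and 1270 CPM. Other members were abundant at day 6 and rose less: transthyretin, TTR, went from 1187 and 1257 CPM to 5187 and 5071 CPM, and APOA1 from 1085 and 1188 CPM to 2792 and 2302 CPM. Albumin, ALB, reached 294 CPM in replicate 1 and 22.8 CPM in replicate 2, from 7.37 and 8.21 CPM, and its log2 fold change was 4.34 with both day 10 libraries and 1.58 without replicate 1. The call of ALB was lost without either day 6 library (adjusted p = 0.0646 and 0.0597). Summed over AFP, ALB, TTR and APOA1 the level was 2956 and 3191 CPM at day 6 and 37141 and 26398 CPM at day 10.

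Coagulation and complement genes moved with them. Of 22 tested 17 rose and 5 did not pass, and 12 were called higher, with a median of 3.74. The chains of fibrinogen, the precursor of fibrin, differed: FGA rose from 164 and 174 CPM to 1539 and 2309 CPM and FGG from 53.1 and 46.5 CPM to 680 and 853 CPM, while FGB was at 2110 and 2100 CPM at day 6 and 2056 and 2747 CPM at day 10 (log2 fold change 0.19 ± 0.37, adjusted p = 0.702). Heparin cofactor SERPIND1 rose from 0 and 0.159 CPM to 47.0 and 83.7 CPM, and complement factor C6 from 0 and 0.119 CPM to 30.4 and 14.4 CPM. The list had 6 called genes without day 6 replicate 1 and 8 without day 6 replicate 2, against 12 with all.

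The transcription factors of endoderm did not move in 1 direction. Of 18 tested 7 rose, 6 fell and 5 did not pass, with a median of -0.24. SOX17, which specifies endoderm, fell from 30.6 and 38.0 CPM to 1.99 and 4.86 CPM (log2 fold change -3.32 ± 0.42, adjusted p = 0.000651). HNF4A, the nuclear receptor that drives hepatic and visceral endoderm genes, fell from 479 and 518 CPM to 164 and 208 CPM (-1.42 ± 0.22). CEBPA, a factor of liver and myeloid cells, rose from 14.6 and 11.8 CPM to 188 and 132 CPM, PROX1, of liver and lymphatic cells, from 4.62 and 4.94 CPM to 44.2 and 44.2 CPM, and CDX2, of hindgut and yolk sac, from 5.20 and 4.36 CPM to 52.8 and 62.5 CPM. The farnesoid bile acid receptor NR1H4 had no read at day 6 and 11.4 and 5.36 CPM at day 10. Among 7 gut and kidney epithelial genes, the intestinal cadherin CDH17 rose from 0.0722 and 0 CPM to 177 and 26.2 CPM (log2 fold change 9.85 without day 10 replicate 1 and 12.62 without day 10 replicate 2), and the endocytic receptor LRP2 (megalin) fell from 1019 and 1068 CPM to 171 and 56.3 CPM (log2 fold change -3.20 ± 0.46, adjusted p = 0.00114). Without day 10 replicate 2, the replicate with the lower LRP2 level, its log2 fold change was -2.56.

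Heart muscle genes separated the day 10 libraries. Of 21 sarcomere genes 13 rose, 1 fell and 7 did not pass, and 6 were called higher (median 3.14). At day 10, however, 17 of the 21 were higher in replicate 2 than in replicate 1, and 7 were at least 4-fold higher there. Over all 17708 genes tested, 9456 were higher in replicate 2 and 90 at least 4-fold higher. A majority higher in replicate 2 was not limited to heart muscle: the cell cycle list had 21 of 26, with 0 at least 4-fold higher. The atrial myosin heavy chain MYH6 was at 0.650 and 0.458 CPM at day 6, at 3.66 CPM in day 10 replicate 1 and at 78.5 CPM in day 10 replicate 2. Cardiac troponin T, TNNT2, was at 1.70 and 2.75 CPM at day 6 and at 1.27 and 38.4 CPM at day 10, so that the groups overlapped and the change did not pass (log2 fold change 3.14 ± 1.17, adjusted p = 0.0554). Without day 10 replicate 2 the log2 fold change of MYH6 was 2.79 and that of TNNT2 was -0.79. Without day 10 replicate 1 they were 7.22 and 4.11. WT cells carried 4236 CPM of MYH6 at day 6 and 7095 CPM at day 10, and 1267 and 1689 CPM of TNNT2 (means of 2 libraries from the fit of 12 libraries, here and below), so both NKX2-5 shRNA libraries stayed far below them.

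Some named sarcomere genes were within 4-fold between the day 10 replicates. Myosin-binding protein C, MYBPC3, rose from 0.108 and 0.199 CPM to 25.9 and 24.0 CPM (log2 fold change 7.23 ± 0.43, adjusted p = 5.51e-05), and the ventricular myosin heavy chain MYH7 rose from 0.289 and 0.378 CPM to 6.78 and 10.2 CPM. Titin, TTN, the giant spring of the sarcomere, was abundant at day 6, with 7290 and 7227 CPM, and fell to 3913 and 2682 CPM. The median log2 fold change of the sarcomere list was 4.11 without day 10 replicate 1 and 1.48 without day 10 replicate 2. Without day 6 replicates 1 and 2 it was 2.875 and 3.205.

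Cardiac transcription factors showed the same split. Of 17 tested 7 rose, 3 fell and 7 did not pass, with 3 called higher, and 5 were at least 4-fold higher in day 10 replicate 2 and none in replicate 1. TBX5, a T-box factor of the first heart field, was at 0.217 and 0.159 CPM at day 6 and at 0.723 and 10.1 CPM at day 10, and TBX18, of the sinus horn and epicardium, at 0.506 and 0.418 CPM and then 2.17 and 13.8 CPM. Their log2 fold changes, 4.86 and 4.12, were 2.02 and 2.28 without replicate 2, and neither passed without a day 6 library (adjusted p from 0.0557 to 0.0703). HAND1, a factor of extraembryonic mesoderm and the left ventricle, rose in both libraries, from 18.6 and 21.6 CPM to 93.9 and 111 CPM (2.35 ± 0.29, adjusted p = 0.000638), as did TBX20 (5.96 and 8.68 CPM, then 39.0 and 72.5 CPM). ISL1, of the second heart field, fell from 3.18 and 3.66 CPM to 0.904 and 1.27 CPM. The higher calls of the list were lost without day 10 replicate 2. The list median was 2.11 without day 10 replicate 1 and 0.14 without day 10 replicate 2. Of 16 cardiac calcium, channel and natriuretic peptide genes 8 rose, 2 fell and 6 did not pass, among the risen ones the peptide NPPB (39.2 and 57.6 CPM, then 127 and 225 CPM), the calcium channel CACNA1C (2.06 and 2.65 CPM, then 11.4 and 11.9 CPM) and the pacemaker channel HCN4 (1.59 and 2.17 CPM, then 4.43 and 16.6 CPM).

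**Figure D3:**
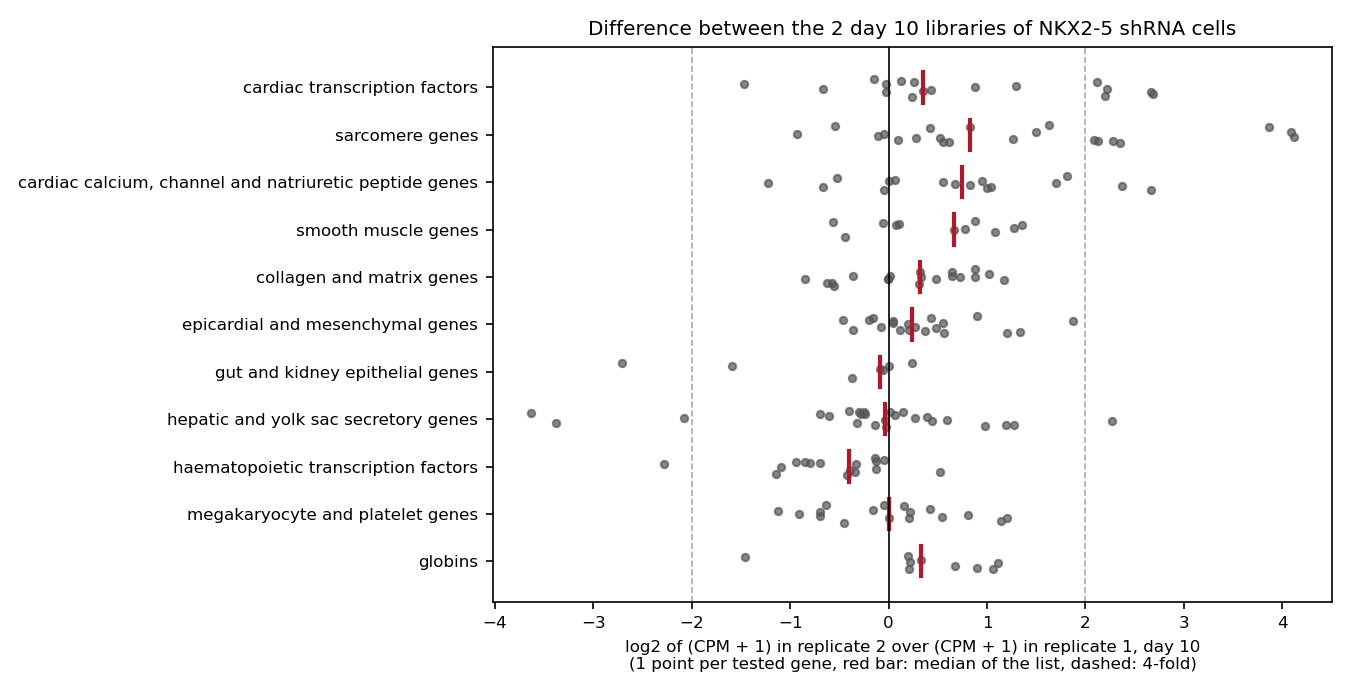
Log2 ratio of day 10 replicate 2 to day 10 replicate 1 (CPM + 1) for the tested genes of 11 lists, 1 point per gene, with the median of each list as a red bar and dashed lines at 4-fold. Of the sarcomere genes 7, and of the cardiac transcription factors 5, lie beyond 4-fold toward replicate 2. No tested globin and no tested platelet gene lies beyond 4-fold on either side. The globin HBB, which was not tested and is not drawn, had 5 counts in replicate 1 and 272 in replicate 2.

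Beyond these lists, the genes that separated the day 10 libraries, chosen after their values were seen, were of different kinds. The aldo-keto reductases AKR1B10 (310 CPM in replicate 1, 1.499 CPM in replicate 2) and AKR1C1 (820 and 23.5 CPM) were higher in replicate 1. The growth factors BMP5 (2.53 and 53.2 CPM) and HGF (1.22 and 26.0 CPM) and the troponin TNNI1 (1.76 and 39.4 CPM) were higher in replicate 2. Summed cardiomyocyte markers (TNNT2, MYH6, MYH7, ACTN2) stood at 13.4 and 139 CPM in the day 10 libraries, against 3.39 and 3.86 CPM at day 6, and summed red cell markers at 824.7 and 999.3 CPM, against 26.6 and 28.1 CPM. Whether a different mix of cells lay behind the replicate difference was not tested.

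Of 19 collagen and matrix genes 14 rose, 3 fell and 2 did not pass, with 6 called higher, and 6 were called without either day 6 library too. Collagen I, of which COL1A1 encodes the alpha 1 chain, rose from 35.4 and 42.1 CPM to 877 and 1775 CPM (log2 fold change 5.10 ± 0.34, adjusted p = 7.86e-05), and COL3A1, the collagen of elastic tissues, from 90.5 and 145 CPM to 1249 and 2301 CPM. The collagen VI chain COL6A3 rose from 2.997 and 5.24 CPM to 186 and 103 CPM. Of the basement membrane chains, LAMA1, the laminin of the early embryo, fell from 2060 and 1991 CPM to 1499 and 969 CPM. Among 20 epicardial and mesenchymal genes 11 rose, 1 fell and 8 did not pass, with 6 called higher. Decorin, DCN, rose from 0.108 and 0.299 CPM to 53.9 and 138 CPM, periostin, POSTN, from 0.289 and 0.398 CPM to 229 and 199 CPM (9.22 ± 0.32, adjusted p = 1.01e-05), and the pericyte receptor PDGFRB from 2.78 and 2.43 CPM to 62.3 and 84.4 CPM. Its relative PDGFRA, a receptor of cardiac and lateral mesoderm, fell from 912 and 882 CPM to 183 and 174 CPM (-2.33 ± 0.11, adjusted p = 2.96e-05). WT1, the epicardial zinc finger factor, did not pass the filter on low counts. Of 11 smooth muscle genes 9 rose and 2 did not pass, among them ACTA2, the actin of smooth muscle, which rose from 14.7 and 18.3 CPM to 107 and 229 CPM, and the smooth muscle heavy chain MYH11 was at 0.867 and 1.24 CPM and then 3.26 and 2.14 CPM (adjusted p = 0.104).

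A pair of neighbouring imprinted genes rose. The insulin-like growth factor IGF2 went from 30.04 and 38.4 CPM to 2901 and 6064 CPM (log2 fold change 7.03 ± 0.40, adjusted p = 3.98e-05). The non-coding RNA H19, its neighbour, chosen after its values were seen, went from 76.4 and 87.8 CPM to 1719 and 2948 CPM (4.83 ± 0.30, adjusted p = 5.69e-05). The hairpin rows inside them rose too, MIR675 of H19 from 2.06 and 2.23 CPM to 62.9 and 123 CPM and MIR483 of IGF2 from 0 and 0.0398 CPM to 1.31 and 4.68 CPM. Reads of a hairpin and of the gene that holds it can be the same reads, so these are not separate observations. IGFBP3, which binds insulin-like growth factors, rose from 92.1 and 92.3 CPM to 786 and 1155 CPM.

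A list of genes of insulin signalling and response was read because insulin was added in the interval. It holds receptors and the growth factor IGF2 as well as genes that insulin regulates. Of 9 tested 7 rose and 2 did not pass, with 3 called higher, IGF2 among them, and 1 called without either day 6 library. PCK1, an enzyme of glucose production that insulin is known to repress in liver, rose from 0.144 and 0.159 CPM to 10.8 and 3.498 CPM, and the receptors INSR (34.8 and 37.9 CPM, then 126 and 64.8 CPM) and IGF1R (86.0 and 83.9 CPM, then 279 and 213 CPM) rose. Of 23 genes of sterol and fatty acid synthesis 15 rose, 1 fell and 7 did not pass. The fatty acid regulator SREBF1 (15.1 and 18.2 CPM, then 43.5 and 76.2 CPM) and lanosterol synthase LSS (113 and 117 CPM, then 559 and 345 CPM) rose. The glucose transporter SLC2A1 was the called gene of 18 glycolysis and hypoxia genes, with 30.1 and 33.6 CPM at day 6 and 342 and 377 CPM at day 10. No culture without insulin was read, so insulin and time cannot be told apart for these genes.

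Proliferation genes had no common direction. Of 26 cell cycle and DNA replication genes 8 rose, 3 fell and 15 did not pass, with a median of 0.23. The proliferation antigen MKI67 rose from 27.1 and 32.9 CPM to 78.2 and 114 CPM (log2 fold change 1.68 ± 0.21, adjusted p = 0.000674), and the licensing factor CDT1 and the regulator E2F1 rose, whereas the helicase subunit MCM2 fell from 53.1 and 60.9 CPM to 24.2 and 31.4 CPM. The cell cycle inhibitor CDKN1A (p21) was the called gene among 16 stress and p53 genes, with 4.66 and 5.94 CPM and then 45.6 and 43.9 CPM, and it was not called without either day 6 library (adjusted p = 0.0178 and 0.0137).

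**Figure D4:**
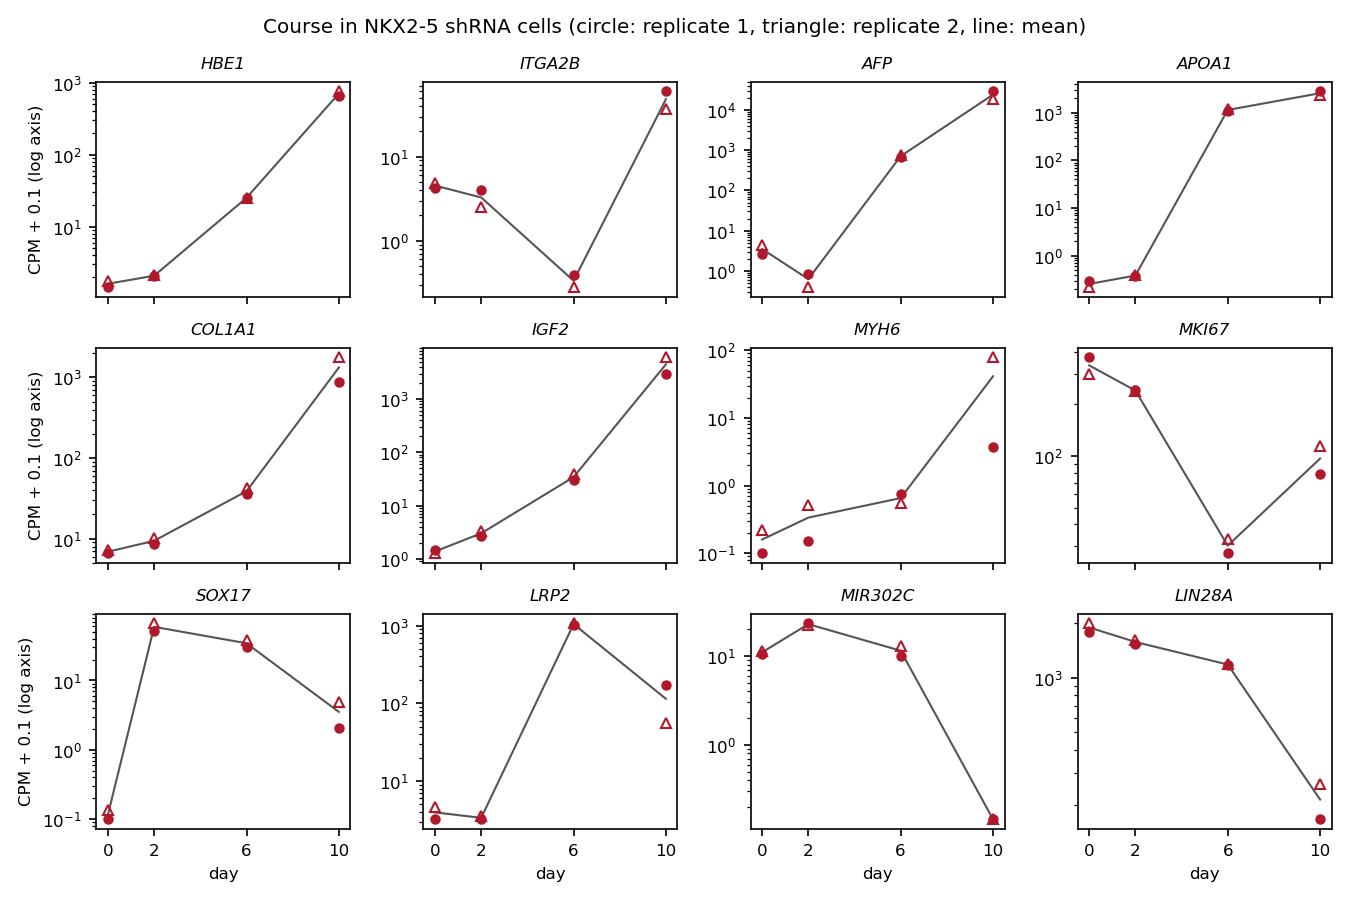
Levels (CPM + 0.1, log axis) of 12 genes at days 0, 2, 6 and 10 of the NKX2-5 shRNA line, with circles for replicate 1, triangles for replicate 2 and a line through the means. HBE1, AFP, COL1A1 and IGF2 climb to their highest mean at day 10, ITGA2B and MKI67 dip at day 6, LRP2 peaks at day 6, and MIR302C stays within 9.75 and 23.2 CPM up to day 6 before it falls to about 0.045 CPM.

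Most called genes that were higher at day 10 than at day 6 had their highest mean of the whole course at day 10, namely 761 of 846, while 53 had been higher at day 0 and 32 at day 2. Of the 134 called lower, 61 were at their peak at day 6, 41 at day 2 and 32 at day 0. The choice of these genes shapes both counts. The 846 could not peak at day 6, nor the 134 at day 10, and no share over all genes was counted. Of 8 pluripotency genes 6 fell and 2 did not pass, and 1 of them, POU5F1, was called lower. POU5F1, the core factor of pluripotency, was at 847 CPM at day 0 (mean of 2 libraries), at 3.21 and 4.14 CPM at day 6 and at 0.181 and 0.273 CPM at day 10. LIN28A, which blocks the maturation of let-7 microRNAs, was still at 1175 and 1186 CPM at day 6 and fell to 166 and 261 CPM (log2 fold change -2.47 ± 0.21, adjusted p = 0.000163). Of 14 mesendoderm and NODAL pathway genes 6 fell, 5 rose and 3 did not pass. Called lower were 3 of them and called higher 2, the latter from levels at or under the limit of detection to below 1 CPM. EOMES (3.76 and 5.92 CPM, then 0.362 and 0 CPM) and LHX1 (5.24 and 5.95 CPM, then 0 and 0.273 CPM) were among those called lower. ZIC2, a zinc finger factor of the epiblast and neural plate, was close between the replicates of each day, 38.9 and 34.9 CPM and then 0.769 and 0.772 CPM (-5.57 ± 0.19, adjusted p = 9.88e-06).

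The hairpins of the miR-302 cluster, microRNAs of pluripotent cells, were called lower. The mature sequences are shown because 4 of the 5 hairpins of the cluster give products named 3p with 1 shared seed. The seed, in capitals, is the bases 2 to 8 that pair with target messages. The sequences are those of RefSeq (GRCh38.p14), those of the cluster on the minus strand of chromosome 4, from miR-367-3p at chr4:112647877-112647898 to miR-302b-3p at chr4:112648489-112648511, and miR-17-5p on the plus strand at chr13:91350618-91350640.
miR-302a-3p: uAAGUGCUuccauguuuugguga
miR-302b-3p: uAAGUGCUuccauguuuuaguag
miR-302c-3p: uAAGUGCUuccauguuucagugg
miR-302d-3p: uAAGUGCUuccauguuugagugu
miR-367-3p: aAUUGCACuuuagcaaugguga
miR-17-5p: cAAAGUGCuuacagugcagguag

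MIR302C was at 9.75 and 12.9 CPM at day 6 and at 0.0452 and 0.0454 CPM at day 10 (at least 83.4-fold lower). MIR302D fell from 4.26 and 5.76 CPM to 0.0452 and 0.0454 CPM (at least 36.8-fold), and MIR302A from 3.94 and 4.16 CPM to 0 and 0.0454 CPM (at least 29.8-fold). MIR302B and MIR367 had no read at day 10, from 3.68 and 4.52 CPM and from 3.11 and 2.91 CPM (at least 30.2-fold and 22.1-fold lower). The 4 miR-302 products named 3p share the seed AAGUGCU, and miR-367-3p has another. The miR-302 products named 5p, not shown, have other seeds. The cluster lies on the strand opposite to an intron of LARP7, whose own level was 31.7 and 28.7 CPM at day 6 and 25.7 and 41.9 CPM at day 10 (adjusted p = 0.597). MIR17, shown for its seed AAAGUGC, which holds the letters AAGUGC of the miR-302 seed shifted by 1 base, was at 0.361 and 0.378 CPM and then 0 (at least 2.72-fold lower). Among 168 hairpin rows tested, 8 were called lower and 3 higher, while 26 fell and 19 rose at 5% FDR. Counts over hairpins of total RNA hold reads of the primary transcript and do not measure the mature microRNA.

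Other genes among the 10 largest falls were the retinal exchanger SLC24A2 (48.9 and 46.5 CPM, then 0.181 and 0.454 CPM), the potassium channel KCNJ15 (13.4 and 13.9 CPM, then 0.181 and 0.182 CPM), the lipid receptor GPR55 (11.6 and 11.1 CPM, then 0.181 and 0 CPM), the carotene enzyme BCO1 (7.58 and 7.57 CPM, then 0 and 0.0909 CPM), CLVS2 (16 and 13.7 CPM, then 0.271 and 0.409 CPM) and GADL1 (8.27 and 10.7 CPM, then 0.0904 and 0.363 CPM). Other names among the 10 largest rises included ITIH2, a hyaluronan-binding plasma protein (0 and 0 CPM, then 19.5 and 23.8 CPM), and CHI3L1, a secreted chitinase-like protein (0 and 0 CPM, then 20.1 and 10.6 CPM).

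Of 14 ligands, antagonists and targets of the BMP pathway 8 fell, 1 rose and 5 did not pass (median log2 fold change -1.17). The ligand BMP7 fell from 38.7 and 40.6 CPM to 0.950 and 4.68 CPM and BMP2 from 147 and 176 CPM to 65.8 and 71.5 CPM. The antagonist NOG fell from 15.7 and 17.4 CPM to 3.80 and 0.818 CPM. The targets ID1 (193 and 199 CPM, then 74.6 and 30.8 CPM), ID3 (176 and 186 CPM, then 61.2 and 60.8 CPM) and SMAD6 (171 and 163 CPM, then 39.2 and 56.1 CPM) fell as well. Of 11 WNT target and feedback genes 4 rose, 5 fell and 2 did not pass. AXIN2, a direct target and brake of WNT signalling, fell from 21.3 and 18.4 CPM to 6.33 and 9.31 CPM, the brake ZNRF3 fell from 18.99 and 17.99 CPM to 4.43 and 7.72 CPM, and LEF1, a nuclear partner of beta-catenin, rose from 4.98 and 6.23 CPM to 16.9 and 25.7 CPM.

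Of 39 HOX genes 9 passed the filter, 6 of which rose, 1 fell and 2 did not pass. HOXB3 (2.64 and 2.03 CPM, then 18.2 and 40.2 CPM) and HOXB4 (1.77 and 1.51 CPM, then 10.99 and 24.5 CPM) were called higher, HOXB4 no longer without either day 6 library (adjusted p = 0.0193 and 0.0221). The other lists had few calls. Of 14 epithelial genes 4 rose, 5 fell and 5 did not pass, among them E-cadherin, CDH1, which rose from 78.9 and 73.1 CPM to 227 and 200 CPM, and keratin KRT19, which fell from 1498 and 1615 CPM to 374 and 284 CPM. Of 12 neural genes 2 rose and 2 fell, and STMN2, of growing axons, was at 0.361 and 0.358 CPM and then 1.72 and 17.7 CPM. Of 6 trophoblast and amnion genes 2 rose and 3 fell.

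Whether these changes were those of WT cells was asked with the change in the knockdown line minus the change in WT, tested as an interaction in 12 libraries (17449 genes). The day 10 libraries of WT and ZEB2 shRNA used here carry other replicate numbers than their day 6 libraries, and it is not stated whether they were made in the same run. Over the same interval 432 genes (2.48%) were called higher and 172 (0.986%) lower in WT. Of the 846 genes called higher in NKX2-5 shRNA cells 151 were called higher in WT as well (17.9% of the 846 and 34.95% of the 432), and of the 134 called lower 32 were (23.9% and 18.6% of the 172). The difference between the changes was called positive for 397 genes (2.28%) and negative for 110 (0.630%). Of the 846, 834 were tested for a difference, and 206 had a called positive one. The 846 were chosen for a rise in these same libraries, which favours positive differences and makes negative ones unlikely.

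Blood and vessel genes were among these differences. ALAS2 was at 1.41 CPM at day 6 and 1.21 CPM at day 10 in WT, and its change in NKX2-5 shRNA cells exceeded that in WT by a log2 difference of 7.93 ± 0.53 (adjusted p = 3.86e-05). KLF1 (2.56 then 0.799 CPM in WT, difference 5.22 ± 0.66) and TAL1 (7.16 then 1.90 CPM, 3.65 ± 0.48) stood lower at day 10 than at day 6 in WT. HBE1 stood at 6.24 and then 20.1 CPM in WT (difference 3.22 ± 0.71, adjusted p = 0.00896), and the other globins tested had no called difference from WT. The platelet genes ITGA2B (0.663 then 2.37 CPM in WT) and PLEK (0.134 then 1.21 CPM) had differences of 5.83 ± 0.79 and 7.46 ± 1.24, and 7 of the 17 genes of that list had a called positive difference. CD34 went from 10.4 to 0.560 CPM in WT while it was at 13.98 and 13.56 CPM and then 20.8 and 22.8 CPM here (difference 5.05 ± 0.48, adjusted p = 0.000118). PECAM1 (4.75 then 0.469 CPM in WT, 5.02 ± 0.68) and TIE1 (4.6 then 0.483 CPM, 5.38 ± 0.57) had the same direction, and 11 of 21 endothelial genes tested had a called positive difference and 1 a called negative one. The median change of the endothelial list was 1.55 here and -1.39 in WT, and that of the haematopoietic factors 1.79 and -1.44. The medians of the globins (8.31 here, 5.32 in WT) and of the platelet genes (4.73 and 2.67) were above 0 in both lines.

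COL1A1 was at 212 CPM at day 6 and 317 CPM at day 10 in WT, higher than the knockdown line at day 6 and lower at day 10, with a difference in change of 4.62 ± 0.41 (adjusted p = 9.23e-05). DCN (0.686 then 2.76 CPM in WT, 6.71 ± 1.21), POSTN (0.541 then 8.89 CPM, 5.26 ± 0.64), IGF2 (149 then 494 CPM, 5.40 ± 0.42), H19 (364 then 480 CPM, 4.53 ± 0.48) and IGFBP3 (369 then 153 CPM, 4.77 ± 0.51) also had called differences. Among muscle genes MYBPC3 did (212 then 1261 CPM in WT, 4.74 ± 0.49), from 0.108 and 0.199 CPM at day 6 in the knockdown line. Of 25 hepatic and yolk sac genes 1, SERPINA1, had a called difference, and the list median was 3.74 here and 2.15 in WT. Keratin KRT18 (696 then 123 CPM in WT, 3.24 ± 0.26) and MKI67 (114 then 99.2 CPM, 1.99 ± 0.26, adjusted p = 0.000640, under 8-fold) differed as well. For the cell cycle list the median was 0.23 here and -1.66 in WT.

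**Figure D5:**
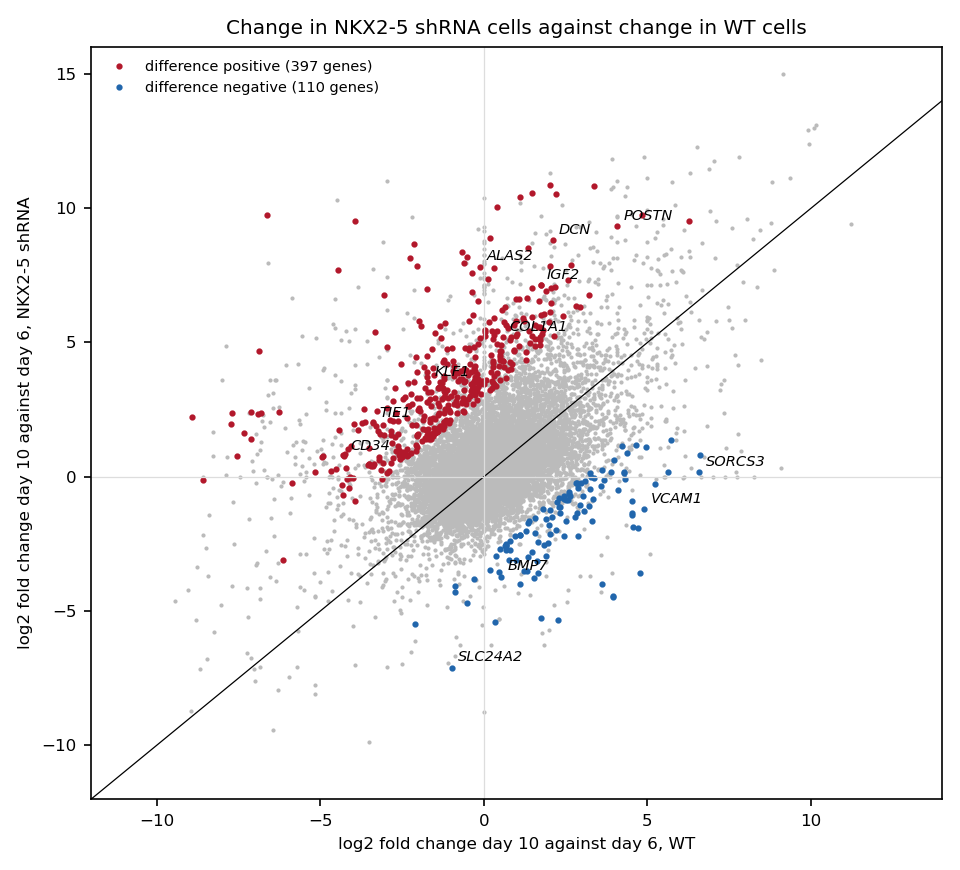
Log2 fold change from day 6 to day 10 in WT (horizontal) against that in NKX2-5 shRNA cells (vertical) for 17449 genes, with the 397 called positive differences in red, the 110 called negative differences in blue and the line of equal change in black. CD34 and TIE1 lie to the left of 0 in WT and near or above 0 here, and VCAM1 and SORCS3 lie far to the right in WT and near 0 here.

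Several negative differences belonged to genes that stood higher at day 10 than at day 6 in WT and not in the knockdown line. VCAM1, an adhesion molecule of developing heart muscle and epicardium, went from 35.6 to 1067 CPM in WT and from 53.7 and 53.7 CPM to 31.1 and 11.99 CPM here (difference -6.11 ± 0.54, adjusted p = 9.01e-05). SORCS3, a sorting receptor, went from 0.772 to 76.7 CPM in WT and stood at 1.48 and 1.35 CPM and then 0.904 and 2.04 CPM here (-6.42 ± 0.59). GADL1 was at 3.32 and 11.3 CPM in WT (-7.01 ± 0.81), and SLC24A2 was at 2.77 and 1.56 CPM in WT (-6.13 ± 0.74). BMP7 was at 106 and 153 CPM in WT (-4.25 ± 0.63), and AXIN2 at 18.9 and 30.4 CPM (-1.92 ± 0.32, adjusted p = 0.00236, under 8-fold). Large positive differences with low levels in WT were those of the gastric proton pump ATP12A (0.349 then 0.0518 CPM in WT; 0.144 and 0.0398 CPM, then 29.2 and 14.6 CPM here; 10.40 ± 1.31) and the prohormone convertase PCSK2 (0.621 then 0.0518 CPM in WT; 0 and 0.0797 CPM, then 9.27 and 1.45 CPM here; 9.82 ± 1.91). For PCSK2 the levels in day 10 replicate 2 and in WT were low.

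Against ZEB2 shRNA cells the difference was called positive for 164 genes (0.940%) and negative for 48 (0.275%). Red cell genes moved apart here too: HBE1 went from 10.6 to 4.85 CPM in ZEB2 shRNA cells (difference 6.07 ± 0.75, adjusted p = 0.000943), HBG1 from 0.799 to 0.747 CPM (8.56 ± 1.18), ALAS2 from 2.67 to 0.270 CPM (11.09 ± 0.56), KLF1 from 3.36 to 0.567 CPM (6.04 ± 0.65) and the glycophorin GYPB from 13.98 to 0.1705 CPM (8.91 ± 0.86), the latter at 0.614 and 1.41 CPM and then 3.89 and 8.13 CPM here. ATP12A (0.733 then 0.272 CPM, 9.60 ± 1.05) and IGFBP3 (653 then 400 CPM, 4.21 ± 0.51) also had called positive differences. Of the 19 collagen and matrix genes none had a called difference from ZEB2 shRNA cells (median change 1.78 here and 2.03 there). Nor had any of the 21 endothelial genes, although their median change was 1.55 here and 0.08 there. Both held in edgeR and in DESeq2. The lack of a call at 8-fold and 1% FDR does not show that the changes were equal. Negative differences included ELMOD1 (1.20 then 13.4 CPM in ZEB2 shRNA cells, -5.63 ± 0.50) and RASGRF2 (11.7 then 40.0 CPM, against 42.3 and 55.0 CPM and then 4.93 and 2.18 CPM here, -5.43 ± 0.62). Of the 846 genes called higher here, 246 were called higher in ZEB2 shRNA cells (29.1% of the 846 and 50.4% of the 488). A called positive difference from ZEB2 shRNA cells was found for 107 of the 846, a count favoured by the choice of these genes on the same libraries.

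Markers of cell types were summed in each library. Megakaryocyte markers went from 0.361 and 0.239 CPM to 125 and 156 CPM, and smooth muscle markers from 152 and 219 CPM to 424 and 731 CPM. Mesenchyme markers went from 1038 and 1069 CPM to 2364 and 4388 CPM, a sum of genes that moved in opposite directions. PDGFRA made up most of it at day 6 (912 and 882 CPM) and fell to 183 and 174 CPM. COL1A1 and COL3A1 made up most of it at day 10. Leukocyte markers reached 12.8 and 6.81 CPM from 0.433 and 0.876 CPM with PTPRC at 0, trophoblast and amnion markers went from 8.63 and 7.27 CPM to 1.13 and 0.182 CPM with CGA at 0, and pluripotent markers from 4.08 and 5.22 CPM to 1.27 and 0.863 CPM. Endothelial markers were at 168 and 173 CPM and then 91.8 and 140 CPM, a sum dominated by KDR. Epicardial markers were at 1.52 and 1.79 CPM and then 4.16 and 10.7 CPM. Neural markers were at 79.7 and 98.2 CPM and then 79.5 and 164 CPM, a sum dominated by TUBB3. The 20 highest genes took 7.92 and 8.76% of the counts at day 6 and 12.6 and 12.8% at day 10. The part that the mix of cells had in each result was not tested.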

How the data were processed

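Stranded total RNA of H1 cells was sequenced. The authors mapped reads to hg19 (GRCh37) with TopHat2 2.0.14 (2 mismatches, 1 best hit) and counted reads per RefSeq gene region with RSeQC. The values are raw read counts as deposited by the authors, without normalization, over 41627 accessions. Of these 40285 (96.8%) matched a symbol in RefSeq (GRCh38.p14, used for names), and the accession with the largest total was kept for each of 23189 symbols. In 4 columns (WT and ZEB2 shRNA, day 10, replicates 1 and 2) the rows do not follow the accessions, so 30 of 34 columns were used.

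Counts were analysed in R 4.3.3 with edgeR 4.0.16 (limma 3.58.1): TMM, filterByExpr, glmQLFit and glmQLFTest, on the 8 libraries of days 0, 2, 6 and 10 of the line, and on 12 libraries for interactions. CPM use the TMM factors of the same fit. Standard errors come from the quasi-likelihood fit and include the spread between replicates. Limits of detection (3 counts) cover counting error only. DESeq2 1.42.0, other scalings, filters, fits and leaving out each library were alternatives. Scripts were tested on simulated data. Named genes were NKX2-5, the 10 largest rises and falls among called genes with at least 5 CPM, up to 4 defining and up to 4 most changed genes of each of 30 lists, and up to 5 genes per direction of each interaction. Those named outside this rule are marked or stand as other members of a list. The lists and comparisons were chosen with earlier results of these data known. Some genes are not reported here.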

Additional observations from a re-analysis of the deposited data

Results flagged for a closer look

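Results stand here because the change from day 6 to day 10 in NKX2-5 shRNA cells differed from that in another line in the interaction test itself. Against WT there were 397 positive and 110 negative called differences, and against ZEB2 shRNA cells 164 and 48. As log2 differences against WT, blood and vessel genes stood at 3.22 (HBE1), 7.93 (ALAS2), 5.22 (KLF1), 3.65 (TAL1), 5.83 (ITGA2B), 7.46 (PLEK), 5.05 (CD34), 5.02 (PECAM1) and 5.38 (TIE1). Matrix, growth and structural genes stood at 6.71 (DCN), 5.26 (POSTN), 4.62 (COL1A1), 5.40 (IGF2), 4.53 (H19), 4.74 (MYBPC3), 3.24 (KRT18), 4.77 (IGFBP3) and 1.99 (MKI67), and 2 other genes at 10.40 (ATP12A) and 9.82 (PCSK2). Negative differences were -4.25 (BMP7), -1.92 (AXIN2), -6.11 (VCAM1), -6.42 (SORCS3), -6.13 (SLC24A2) and -7.01 (GADL1).

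Against ZEB2 shRNA cells they were 6.07 (HBE1), 8.56 (HBG1), 11.09 (ALAS2), 6.04 (KLF1), 8.91 (GYPB), 4.21 (IGFBP3), 9.60 (ATP12A), -5.63 (ELMOD1) and -5.43 (RASGRF2). Both sets share the NKX2-5 shRNA libraries, so agreement between them is not separate evidence.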

How the results depend on the processing

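With all settings as reported, 980 genes were called at day 10 against day 6 (846 higher, 134 lower). Fitted on days 6 and 10 alone the counts were 288 (254 and 34), and at 5% FDR with no fold limit 8695 (4260 and 4435). Leaving out 1 library at a time gave 440 to 1288 (361 to 1078 higher, 79 to 210 lower): 440 and 462 without day 6 replicates 1 and 2, and 1093 and 1288 without day 10 replicates 1 and 2. A lone library left in a group was assumed to vary like the others. Counts with a library left out, here and for each list, therefore also depend on which spread between replicates remains. They do not measure the weight of that library alone. Of the 980 calls, 790 were kept without day 10 replicate 1, 842 without replicate 2, 680 in both and 924 in DESeq2.

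The 507 called differences from WT became 257 (178 higher, 79 lower) with WT and NKX2-5 shRNA libraries alone, 4361 (2535 and 1826) at 5% FDR, and 297 to 861 (213 to 603 and 84 to 258) with 1 library left out, lowest without NKX2-5 shRNA day 6 replicate 1 and highest without its day 10 replicate 2. The 212 differences from ZEB2 shRNA cells became 399 (327 and 72) in DESeq2, 2070 (1306 and 764) at 5% FDR, and 79 to 515 (60 to 349 and 13 to 166) with 1 library left out, 79 both without ZEB2 shRNA day 6 replicate 1 and without its day 10 replicate 4, and highest without NKX2-5 shRNA day 10 replicate 2. Same-numbered libraries of days 6 and 10 did not deviate together (correlation 0.03). A replicate block gave 823 calls over time. For the differences from WT a block on the replicate numbers of the NKX2-5 shRNA libraries only gave 586.

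Without day 10 replicate 1 or 2 in turn, log2 fold changes of some genes lay on both sides of 0: NKX2-5 1.84 and -0.39, TNNT2 4.11 and -0.79, SORCS3 0.57 and -0.60, LARP7 0.50 and -0.19, and AKR1B10 -2.66 and 5.04. AHSP, with no read at either day, was at 0.067 with the replicate block. List medians crossed 0 for mesendoderm genes (0.028 in DESeq2, 1.15 with days 6 and 10 alone, 0.0047 with all 30 libraries, 0.15 as a difference of mean log2(CPM + 1), 0.08 without day 6 replicate 1, and -1.37 and 0.27 without day 10 replicates 1 and 2) and WNT genes (-0.54 with days 6 and 10 alone, -0.37 and 0.60 without day 10 replicates 1 and 2). Without day 10 replicates 1 and 2 in turn the medians were 0.39 and -0.043 for haem genes, 0.44 and -0.025 for cell cycle genes, -0.10 and 0.24 for epithelial genes (-0.02 without day 6 replicate 1) and 0 and -0.70 for neural genes (0.59 without day 6 replicate 2). The median of all genes was 0 without day 10 replicate 2 and 0.11 without day 6 replicate 2. The causes were not tested.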

Other observations

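Some genes with the largest differences from another line had no read in a whole group, so that only levels are given for them. TMEM119 (0 and 0 CPM, then 3.98 and 6.99 CPM), SLC17A4, a phosphate transporter of gut and kidney (0 and 0 CPM, then 4.34 and 8.04 CPM), and INSYN2A (0 and 0 CPM, then 5.88 and 9.45 CPM) had no read at day 6 and were read at day 10 in the NKX2-5 knockdown line, and stood at 1.29, 0.187 and 1.01 CPM in WT at day 10. TFAP2A, a factor of trophoblast, amnion and surface ectoderm, was at 0.578 and 0.916 CPM at day 6 with no read at day 10, while in ZEB2 shRNA cells it went from 6.70 to 24.4 CPM.

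GABRP, a receptor subunit of amnion that was read at both days, was at 7.95 and 6.31 CPM and then 1.09 and 0 CPM, against 310 and then 688 CPM in ZEB2 shRNA cells.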
